A study of Homo sapiens with 6 samples.

Results

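The TGF-beta and BMP pathway was examined as 50 genes in NCI-H660 cells, a human neuroendocrine prostate cancer (NEPC) line. A gene entered by its symbol alone, and all 50 symbols were found among the 28008 in the count table. The set comprised 22 ligands, 10 receptors, 8 SMADs, 4 ID genes and 6 modulators of the pathway.

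The cells carried a tetracycline-inducible shRNA against MUC1, placed in the pLKO-tet-puro vector and selected with puromycin, in both groups. The DOX-negative group received 0.1% DMSO as vehicle (n = 3) and the DOX-positive group received doxycycline at 500 ng/ml (n = 3), a drug that switches on the shRNA. RNA was taken from triplicate cultures, so p values measure the spread between cultures of a single line. A control shRNA with doxycycline was not analysed here, so silencing of MUC1 and exposure to doxycycline cannot be told apart.

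TGF-beta, activin and BMP ligands are secreted dimers that bring together type I and type II receptor kinases. The activated receptors phosphorylate SMAD proteins, which join SMAD4, enter the nucleus and change transcription, with the ID genes being a textbook output of the BMP branch and matrix genes such as FN1 of the TGF-beta branch. Secreted antagonists, a decoy receptor and inhibitory SMADs dampen the signal, and several of these are themselves induced by it.

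The libraries held between 47620696 and 74061121 counts, a depth that did not separate the groups (exact two-sided permutation p = 0.30, where the smallest p that 3 against 3 allows is 0.10). MUC1 was 88.2, 90.2 and 79.6 normalized CPM (counts scaled by library size and TMM factors) in the DOX-negative libraries and 36.7, 37.2 and 29.9 in the DOX-positive libraries. Its log2 fold change was -1.32 (SE 0.0962, edgeR adjusted p = 0.000173). CHGA, the neuroendocrine granule protein chromogranin A, had a mean of 29.8 TPM in DOX-negative and 26.3 TPM in DOX-positive cells, whereas the luminal marker KLK3 had 0 counts in every library. Of 10 neuroendocrine markers, NCAM1 (log2 fold change -0.50) and INSM1 (-0.45) fell and the other 8 were not called. In bulk RNA, fewer cells of a type and less RNA per cell cannot be told apart.

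Among the pathway genes, the ligands GDF10 and BMP3 fell with DOX, and the antagonist GREM1, the decoy receptor BAMBI and the inhibitory SMAD7 rose. These 5 were called among the 38 genes that passed the count filter, at an adjusted p under 0.05 from the edgeR quasi-likelihood test over all 17026 tested genes. Over all tested genes 829 were called, or 4.87%, with 2.91% higher and 1.96% lower. The 38 genes had a median log2 fold change of 0.12 (all tested genes, 0.00034), with 22 positive and 16 negative values. The groups did not overlap for 20 of the 38, against 28.1% of all tested genes. Of these 20, 11 were higher and 9 lower in all 3 DOX-positive libraries.

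**Figure D1:**
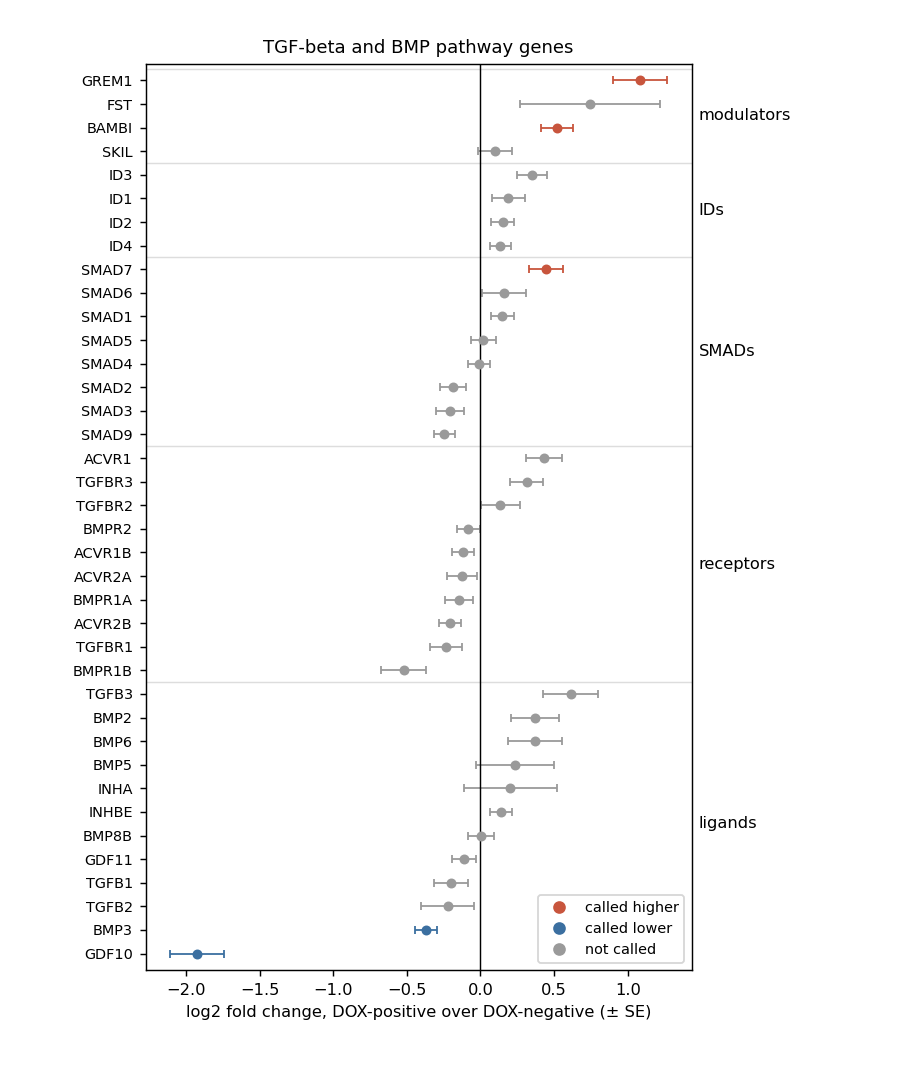
Log2 fold change of DOX-positive over DOX-negative libraries (x axis, bars are SE) for the 38 tested pathway genes (y axis), grouped by role. GDF10 lies farthest from 0 at -1.92 and GREM1 is the highest at 1.08, while the receptors and ID genes hold no called gene.

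The upstream sequences of the called genes are given first, because SMAD proteins are known to bind short sequence elements near their targets. The 250 bases before the first listed start are shown for GDF10, the gene that fell most, and for the 3 genes that rose, while BMP3 had no entry. Sequences are from RefSeq (GRCh38.p14), 5′ to 3′ on the strand of the gene. Capitals mark CAGAC or its reverse complement GTCTG, the core of the SMAD binding element, and GGCGCC, a GC-rich element which is its own reverse complement.
GDF10 (chr10:47299947-47300196, plus strand): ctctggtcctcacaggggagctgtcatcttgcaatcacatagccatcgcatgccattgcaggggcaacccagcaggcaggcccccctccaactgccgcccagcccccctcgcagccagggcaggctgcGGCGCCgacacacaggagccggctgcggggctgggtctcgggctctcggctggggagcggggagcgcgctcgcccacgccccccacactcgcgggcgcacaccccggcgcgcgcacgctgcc
GREM1 (chr15:32717754-32718003, plus strand): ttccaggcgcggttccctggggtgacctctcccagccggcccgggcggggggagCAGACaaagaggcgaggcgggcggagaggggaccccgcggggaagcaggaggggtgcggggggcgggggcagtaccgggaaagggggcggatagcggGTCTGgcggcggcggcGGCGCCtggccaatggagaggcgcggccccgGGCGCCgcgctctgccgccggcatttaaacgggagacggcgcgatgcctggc
BAMBI (chr10:28677271-28677520, plus strand): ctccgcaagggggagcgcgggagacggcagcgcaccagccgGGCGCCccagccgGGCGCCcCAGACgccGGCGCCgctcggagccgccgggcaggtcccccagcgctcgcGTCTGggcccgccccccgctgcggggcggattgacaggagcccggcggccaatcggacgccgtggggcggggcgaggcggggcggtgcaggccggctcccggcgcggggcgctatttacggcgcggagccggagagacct
SMAD7 (chr18:48950966-48951215, minus strand): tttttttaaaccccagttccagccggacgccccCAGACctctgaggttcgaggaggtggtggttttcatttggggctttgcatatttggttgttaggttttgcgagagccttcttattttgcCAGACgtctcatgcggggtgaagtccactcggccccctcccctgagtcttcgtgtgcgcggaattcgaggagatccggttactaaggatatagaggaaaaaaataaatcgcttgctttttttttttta

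The GDF10 window held 0 CAGAC sites and 1 GGCGCC site. The windows of GREM1, BAMBI and SMAD7 each held 2 CAGAC sites, together with 2, 3 and 0 GGCGCC sites. The windows of TGFB2, TGFB3 and BMPR2, which were not called, also held 2 CAGAC sites each. So did the window of LTBP1, which did not pass the count filter and was not tested. At least 1 CAGAC was present in 37.8% and at least 1 GGCGCC in 16.1% of 27305 windows of the same length. These shares count 1 window per gene, and the share with 2 sites was not computed. Of the 42 pathway genes with an entry, 16 (38.1%) held CAGAC and 12 (28.6%) held GGCGCC. The letters overlapped each other in 16 of all windows and in none of the 4 shown. Binding was not measured, and the letters describe the sequence only.

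Among the ligands, GDF10 showed the largest change of the 50 genes. GDF10, also called BMP3b, is a secreted member of the BMP3 subfamily. It lies on chromosome 10 at 47300197 to 47313577 (GRCh38.p14). The DOX-negative libraries had 2.13, 2.05 and 2.16 CPM and the DOX-positive libraries had 0.648, 0.491 and 0.515 CPM. The lowest DOX-negative library was thus above the highest DOX-positive library, and the replicates of each group lay close together. The mean was 2.11 ± 0.0565 CPM without DOX and 0.552 ± 0.0846 with DOX (SD, n = 3), a 3.80-fold lower level (log2 fold change -1.92, SE 0.18, edgeR adjusted p = 0.000989). GDF10 was a scarce transcript, with 136, 127 and 103 reads in the DOX-negative and 49, 27 and 38 in the DOX-positive libraries. In TPM, which allows for gene length, its means were 0.446 and 0.122. It was called in every one of the 16 alternative analyses that gave it a value.

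BMP3, the other ligand of that subfamily, is known as an atypical BMP that opposes osteogenic BMPs. The BMP3 gene (chromosome 4, 81030708 to 81057627) was at 64.7, 64.9 and 71.8 CPM in the DOX-negative libraries. The 3 DOX-positive libraries were at 53.5, 51.3 and 51.2 CPM and did not overlap with them. BMP3 fell 1.29-fold (log2 fold change -0.37, SE 0.075, edgeR adjusted p = 0.0197). The call was lost without DOX-negative replicate 2 (log2 fold change -0.39, adjusted p = 0.0822) or replicate 3 (-0.32, adjusted p = 0.114). Thus GDF10 and BMP3 were both lower with DOX, but BMP3 was the more abundant transcript, with a DOX-negative mean of 6.17 TPM, and had the smaller fold change.

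The other 10 tested ligands were not called. INHBE, which encodes an activin subunit, had the highest mean TPM of the ligands (11.3 without and 12.7 with DOX), with 52.0, 48.2 and 47.2 CPM against 52.5, 55.1 and 54.6 CPM. These groups did not overlap, but the highest DOX-negative and the lowest DOX-positive library were almost equal, and the gene was not called (log2 fold change 0.14, edgeR adjusted p = 0.323). BMP8B, a BMP with a close paralog (BMP8A) and with 2 overlapping genes in the count table (PPIE and OXCT2), had a log2 fold change near 0 (0.0035, SE 0.087). GDF11, a relative of myostatin, was also near 0 (log2 fold change -0.11, SE 0.079, edgeR adjusted p = 0.462). Its DOX-positive libraries were nevertheless all below its DOX-negative libraries. TGFB1 itself had 14.2, 12.9 and 10.5 CPM without DOX and 10.1, 11.5 and 11.1 CPM with DOX, which overlapped.

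The uncalled ligands with the largest fold changes were TGFB3 and BMP2. TGFB3, the third TGF-beta isoform, was at 1.52, 1.12 and 1.16 CPM against 1.67, 2.27 and 1.91 CPM (log2 fold change 0.61, SE 0.19, edgeR adjusted p = 0.0808). BMP2, a classical BMP of bone formation, was at 1.20, 1.57 and 1.49 CPM against 1.76, 1.82 and 1.93 CPM (log2 fold change 0.37, SE 0.16, adjusted p = 0.218). In both genes all DOX-positive libraries were above all DOX-negative libraries.

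TGFB2, BMP5, BMP6 and INHA passed the filter, had overlapping groups and were not called, with log2 fold changes of -0.22, 0.24, 0.37 and 0.20. The other 10 ligands were near or below the limit of detection. INHBA and INHBB, the subunits of activins A and B, had 0 counts in every library, which allows up to 3 counts, or between 0.0405 and 0.0630 CPM depending on the library. BMP4, BMP7, GDF5, GDF6, GDF7, NODAL, LEFTY1 and LEFTY2 did not pass the filter and had at most 11 counts in any library. NODAL, an embryonic ligand, had 0 counts in the DOX-negative libraries and 1, 3 and 2 counts in the DOX-positive libraries, all within that limit.

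**Figure D2:**
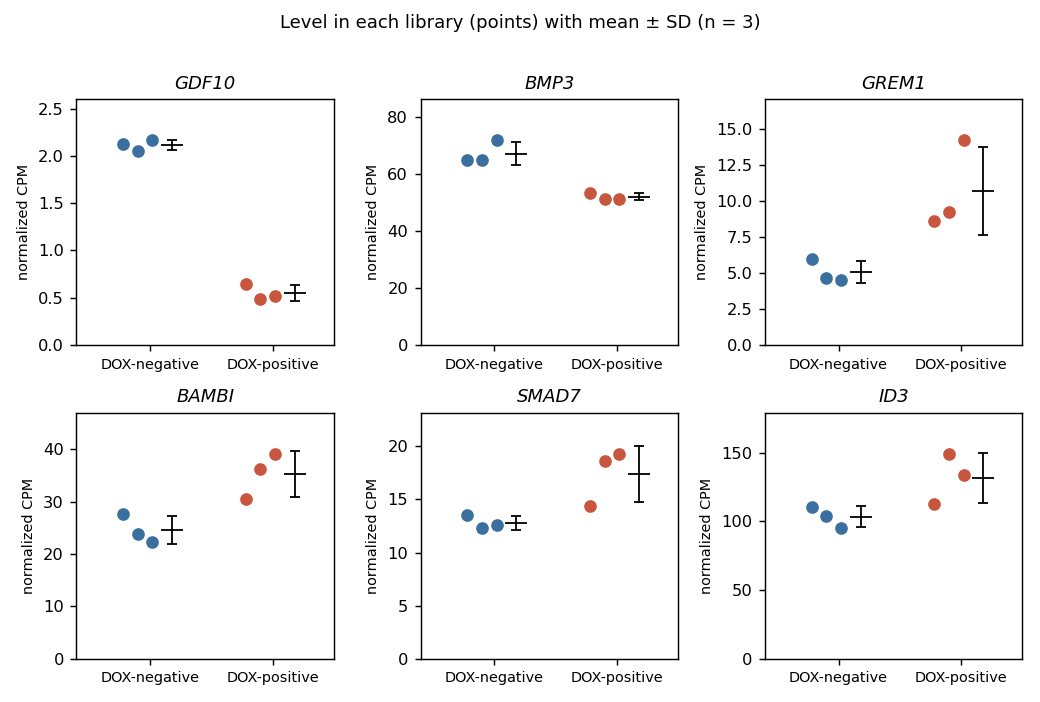
Normalized CPM (y axis, from 0) in each library (points) for the 5 called genes and ID3, in DOX-negative and DOX-positive cells, with mean and SD (n = 3). The groups do not overlap in any panel, and the DOX-positive GREM1 values spread from 8.63 to 14.2 CPM.

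All 10 receptors passed the filter and 0 were called by edgeR. At an unadjusted p under 0.05 there were 4 (all tested genes, 21.1%), DESeq2 called 2, ACVR1 and BMPR1B (all genes with an adjusted p, 8.43%), and limma-voom called 0 (all tested genes, 4.33%). The receptors had 3 positive and 7 negative log2 fold changes with a median of -0.12. The type I receptor of TGF-beta, TGFBR1, had the highest mean TPM of the receptors (6.52 without and 5.80 with DOX). It was at 72.8, 79.1 and 87.6 CPM against 75.0, 56.0 and 72.2 CPM, and these values overlapped (log2 fold change -0.24, edgeR adjusted p = 0.243).

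BMPR1B, a type I BMP receptor, was at 12.9, 14.4 and 15.4 CPM without DOX and 12.6, 9.22 and 7.84 CPM with DOX. DOX-positive replicate 1 was close to the DOX-negative libraries and the other two were well below (log2 fold change -0.52, SE 0.15, edgeR adjusted p = 0.0686). ACVR1, the type I receptor known as ALK2, was at 11.4, 9.70 and 9.39 CPM against 12.3, 12.6 and 16.2 CPM. Its log2 fold change was 0.43 (SE 0.12, adjusted p = 0.0675), with no overlap. The betaglycan co-receptor TGFBR3 had a log2 fold change of 0.31 and was also uncalled, whereas BMPR2 (-0.082), ACVR2B (-0.21) and ACVR1B (-0.12), which rank below TGFBR1 in mean TPM, lay nearer to 0. The groups overlapped for BMPR2. All DOX-positive libraries were above all DOX-negative libraries for TGFBR3, and below them for ACVR2B and ACVR1B.

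Among the SMADs, the inhibitory SMAD7, which blocks activated type I receptors, was called higher. SMAD7 lies on chromosome 18 at 48919853 to 48950965. The DOX-negative libraries had 13.5, 12.3 and 12.6 CPM and the DOX-positive libraries had 14.4, 18.6 and 19.3 CPM. The groups did not overlap, although DOX-positive replicate 1 was less than 1 CPM above the highest DOX-negative library. SMAD7 rose 1.36-fold (log2 fold change 0.44, SE 0.11, edgeR adjusted p = 0.0475), a call at the edge of the threshold. With 1 library left out, it was called only without DOX-positive replicate 1 (log2 fold change 0.57, adjusted p = 0.0108). Without DOX-negative replicate 1, 2 or 3 its adjusted p was 0.0648, 0.178 and 0.198, and without DOX-positive replicate 2 or 3 it was 0.0795 and 0.134.

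The SMADs that carry the signal were not called by edgeR with all 6 libraries. SMAD9, a BMP-activated SMAD, was at 83.8, 84.9 and 82.8 CPM without DOX and 69.2, 70.0 and 73.2 CPM with DOX, with no overlap and little spread (log2 fold change -0.24, SE 0.069, edgeR adjusted p = 0.0634). DESeq2 called SMAD9 (adjusted p = 0.0241), as did edgeR without DOX-positive replicate 2 (adjusted p = 0.0492). SMAD3, a TGF-beta-activated SMAD, was lower by less (log2 fold change -0.21, SE 0.095, adjusted p = 0.232), as was SMAD2 of the same branch (-0.19, adjusted p = 0.257), and neither passed the test. The common partner SMAD4 (-0.011, SE 0.072) and the BMP-activated SMAD5 (0.020, SE 0.086) were close to 0. SMAD5 had the highest mean TPM of the SMADs, at 11.7 without and 12.3 with DOX. SMAD6, the other inhibitory SMAD, was at 3.61, 3.44 and 2.90 CPM against 3.11, 4.27 and 3.84 CPM, which overlapped.

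The ID genes encode helix-loop-helix proteins that hold back transcription factors of differentiation. They were the most abundant of the pathway genes per length, with DOX-negative means of 65.1 (ID1), 55.9 (ID2), 51.8 (ID3) and 24.7 TPM (ID4). All 4 log2 fold changes were positive (all tested genes, 8528 of 17026), with a median of 0.17, and 0 were called by edgeR. At an unadjusted p under 0.05 there was 1, against 21.1% of all tested genes. DESeq2 called 1 (ID3), against 8.43%, and limma-voom called 0, against 4.33%. ID3 was at 111, 104 and 95.4 CPM without DOX and 113, 149 and 134 CPM with DOX (log2 fold change 0.35, SE 0.10, edgeR adjusted p = 0.0677). DOX-positive replicate 1 nearly met the highest DOX-negative library, and without it ID3 was called (log2 fold change 0.45, adjusted p = 0.0197).

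ID1 was at 143, 130 and 113 CPM against 122, 163 and 155 CPM, which overlapped (log2 fold change 0.19, edgeR adjusted p = 0.371). ID2 had a log2 fold change of 0.15 with overlapping groups. ID4, known for roles in neural and prostate cells, had one of 0.14 with no overlap. Each of these 4 genes was lowest among the DOX-positive libraries in replicate 1.

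**Figure D3:**
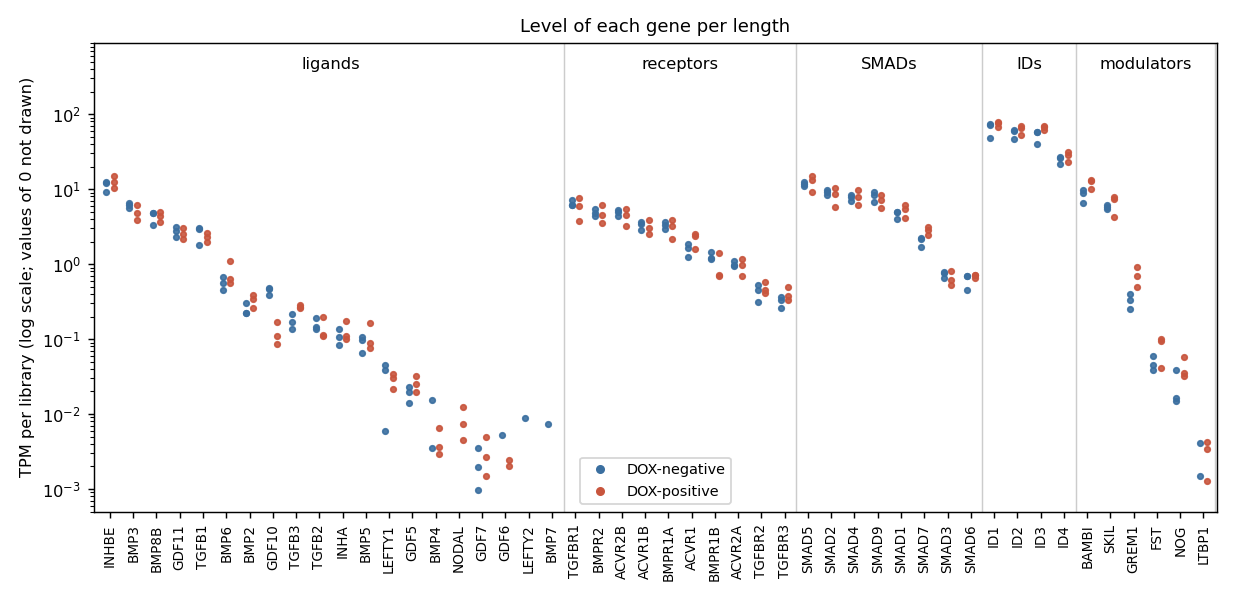
TPM in each library (y axis, log scale, values of 0 not drawn) for the pathway genes with any TPM, ordered by mean TPM within each role. The ID genes are the most abundant, and GDF10 is the ligand whose DOX-positive points lie clearly below its DOX-negative points.

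Of the 6 modulators, 4 were tested, all with positive log2 fold changes (median 0.63), and 2 were called higher. Over all 17026 tested genes, 8528 were positive and 2.91% were called higher. GREM1 encodes Gremlin 1, a secreted protein that binds BMPs and keeps them from their receptors. GREM1 (chromosome 15, 32718004 to 32745106) was at 5.93, 4.66 and 4.54 CPM in the DOX-negative libraries. It was at 8.63, 9.24 and 14.2 CPM in the DOX-positive libraries, so that every library with DOX was above every library without it, and replicate 3 was the highest. GREM1 rose 2.12-fold (log2 fold change 1.08, SE 0.18, edgeR adjusted p = 0.0105).

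The rise of GREM1 did not rest on the high replicate, since without DOX-positive replicate 3 the log2 fold change was 0.82 (adjusted p = 0.00863). The call was lost without DOX-negative replicate 2 (1.03, adjusted p = 0.0622) or replicate 3 (1.01, adjusted p = 0.0824). GREM1 is also known as a product of fibroblasts. Of 8 fibroblast markers, COL3A1 and THY1 had 0 counts in every library, and the summed level of the 8 was 25.2 to 30.7 CPM without DOX and 23.5 to 27.9 CPM with DOX. Most of that sum came from COL1A2, with means of 18.1 CPM without and 11.1 CPM with DOX, and COL1A1, with 8.16 and 12.4 CPM. COL1A1 (log2 fold change 0.60) and LUM (1.06) rose. COL1A2 (-0.71) was lower in all DOX-positive libraries than in any DOX-negative library but was not called. DCN, PDGFRA and PDGFRB had at most 9 counts in any library. The part of fibroblasts in the GREM1 result was not tested. An antisense gene, GREM1-AS1, overlaps GREM1 in RefSeq and was not analysed here.

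BAMBI encodes a decoy receptor without a kinase domain that competes with type I receptors. BAMBI (chromosome 10, 28677521 to 28682932) was at 27.6, 23.9 and 22.3 CPM without DOX and 30.5, 36.2 and 39.0 CPM with DOX, with no overlap. It rose 1.43-fold (log2 fold change 0.52, SE 0.11, edgeR adjusted p = 0.0227). Its mean of 8.41 TPM without and 12.1 TPM with DOX made it the modulator with the highest level per length. The call was lost without DOX-negative replicate 2 (log2 fold change 0.50, adjusted p = 0.104) or 3 (0.45, adjusted p = 0.143) and without DOX-positive replicate 2 (0.50, adjusted p = 0.0513) or 3 (0.44, adjusted p = 0.063).

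SKIL, a repressor of SMAD-driven transcription, had overlapping groups (log2 fold change 0.098, SE 0.12). FST, an activin antagonist, had at most 27 counts in any library, and its log2 fold change was 0.74 (SE 0.48, edgeR adjusted p = 0.407). NOG, which encodes the BMP antagonist Noggin, and LTBP1, which stores latent TGF-beta, did not pass the filter and had at most 14 and 3 counts in any library.

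**Figure D4:**
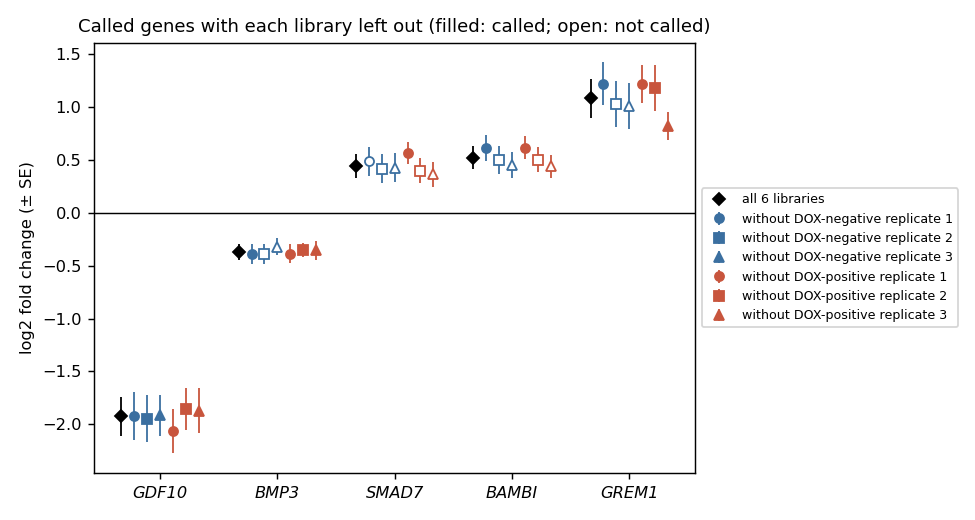
Log2 fold change (y axis, bars are SE) of the 5 called genes with all 6 libraries and with each library left out. Filled symbols are called and open symbols are not. GDF10 is filled throughout and SMAD7 is filled in 2 of its 7 positions.

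Other genes of the pathway were examined as a list of 120 written from general knowledge, with some of their values already known. Of these, 93 were tested and 14 were called, 13 higher and 1 lower. The TGF-beta target genes held 7 of the calls. All 24 were tested, 7 rose and 0 fell, and the median log2 fold change was 0.56. That is 29.2% called, against 4.87% of all tested genes. Some markers of other cell types also rose. Among them were the fibroblast marker LUM (log2 fold change 1.06), the endothelial VWF (0.97) and CDH5 (0.94), and the macrophage marker CD68 (0.78). On the same lists, the fibroblast COL1A2 (-0.71), the endothelial KDR (-0.74) and the immune CD14 (0.14) were not called. COL1A1 and COL1A2 are each both a listed target and a fibroblast marker. The summed level of 5 immune markers was 2.46 to 2.81 CPM without DOX and 3.32 to 3.91 CPM with DOX, while CD3E had 0 counts in every library and PTPRC at most 1. The part of these cell types in the target genes was not tested.

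The target genes that rose encode mostly secreted and matrix proteins. Fibronectin (FN1), a cell adhesion protein, had 402, 314 and 297 CPM without DOX and 631, 770 and 905 CPM with DOX, with no overlap (log2 fold change 1.19, SE 0.14, edgeR adjusted p = 0.00247). THBS1, encoding thrombospondin 1, an activator of latent TGF-beta, was at 16.4, 14.3 and 15.3 CPM against 25.2, 28.6 and 33.5 CPM (log2 fold change 0.92, SE 0.11, adjusted p = 0.00242). In both genes the lowest DOX-positive library was above the highest DOX-negative library.

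ANGPTL4, a secreted regulator of lipoprotein lipase, rose by 0.82 on the log2 scale, with the call lost without DOX-negative replicate 2 (adjusted p = 0.0739) or 3 (adjusted p = 0.104). The cell cycle inhibitor CDKN1A (0.62), the matricellular gene CYR61 (0.63) and COL1A1 also rose, and were named after their values were seen, outside the naming rule. Several of these genes are also known targets of other pathways. SNAI1 and ZEB1, transcription factors of epithelial-mesenchymal transition on the same list, were not called. Without DOX-negative replicate 2 or 3 the count of called TGF-beta targets was 2 (FN1 and THBS1), in fits where 127 and 58 genes were called in all. FN1 and THBS1 were called with any 1 library left out.

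**Figure D5:**
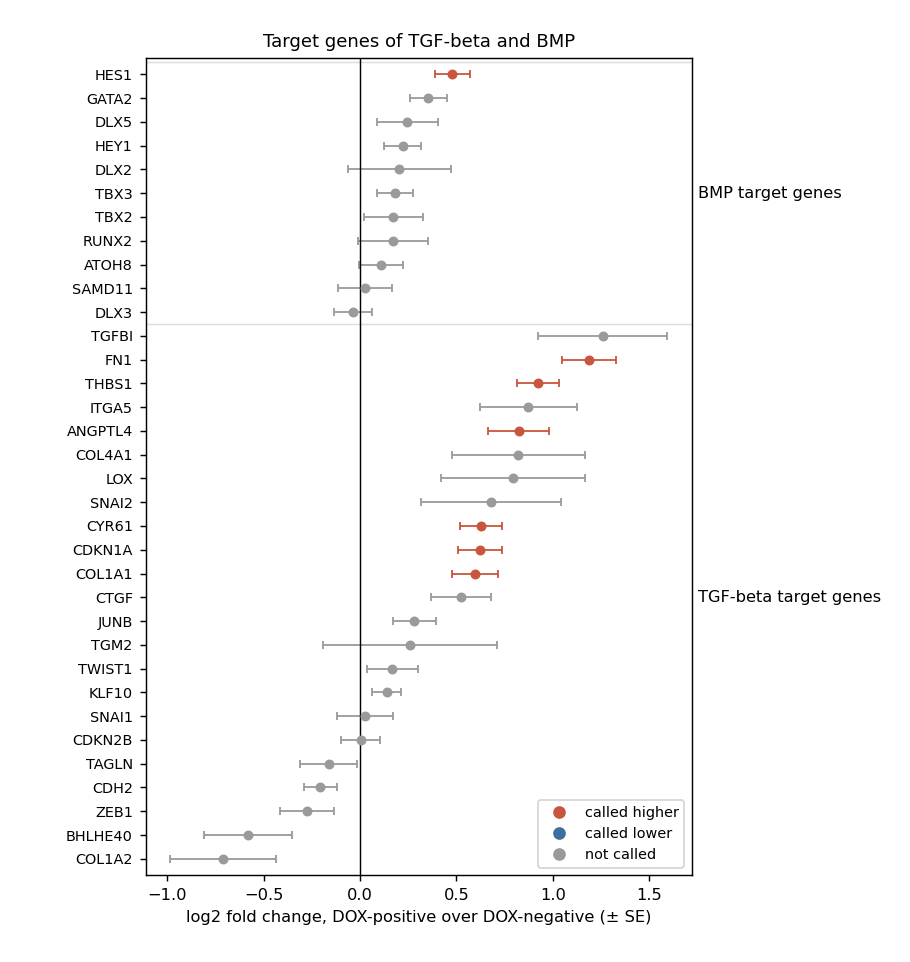
Log2 fold change of DOX-positive over DOX-negative libraries (x axis, bars are SE) for target genes (y axis) of TGF-beta (23 of the 24 tested) and BMP (11 tested). The called genes drawn lie to the right of 0, 6 for TGF-beta and 1 for BMP, and 5 TGF-beta targets lie to the left of 0 without being called.

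For BMP, 11 of 17 listed targets were tested and 10 had positive log2 fold changes (median 0.18). The called share was 9.09%, against 4.87% of all 17026 tested genes, of which 8528 were positive. HES1, a repressor that is also the main Notch target, was the 1 called by edgeR. It was at 20.2, 21.1 and 18.9 CPM without DOX and 25.3, 28.9 and 29.6 CPM with DOX, which did not overlap (log2 fold change 0.48, SE 0.091, edgeR adjusted p = 0.0153). The call was lost without DOX-negative replicate 2 (0.52, adjusted p = 0.0657) or 3 (0.43, adjusted p = 0.108). GATA2, a transcription factor gene named after its values were seen, had no overlap and an edgeR adjusted p of 0.056 (log2 fold change 0.35), and DESeq2 called it together with HES1. GATA2 was also called without DOX-positive replicate 1 and without a count filter.

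Outside the targets, 6 genes were called. They were 1 of 5 tested ligands, 1 of 5 receptors and co-receptors, 2 of 13 ligand storage and processing genes and 2 of 24 intracellular regulators. The share over all tested genes was 4.87%. GDF15, a distant ligand of the family known as a stress cytokine, was at 134, 125 and 112 CPM against 181, 235 and 214 CPM and rose by 0.76 on the log2 scale (SE 0.10, edgeR adjusted p = 0.00311). ITGB6 (0.56) and ITGB8 (0.53), integrin subunits that release latent TGF-beta, also rose, as did PPP1R15A (0.37), a phosphatase subunit. MAP3K7 fell, with a log2 fold change of -0.30, and encodes TAK1, a kinase of the SMAD-independent branch.

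Of these genes, GDF15 was called with any 1 library left out. The other calls depended on single libraries. Without DOX-negative replicate 2 or 3, the adjusted p was 0.0940 and 0.0805 for ITGB6, 0.145 and 0.127 for ITGB8, 0.106 and 0.167 for PPP1R15A, and 0.191 and 0.170 for MAP3K7. Without DOX-positive replicate 3 it was 0.0894 for ITGB8, 0.0823 for PPP1R15A and 0.0881 for MAP3K7, and without DOX-negative replicate 1 it was 0.0742 for ITGB8 and 0.0859 for MAP3K7.

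ACVRL1, the endothelial type I receptor ALK1, rose from 0.313, 0.356 and 0.294 CPM to 0.609, 0.618 and 0.746 CPM (log2 fold change 1.03, edgeR adjusted p = 0.0364). The call was lost with DESeq2 (adjusted p = 0.0700) and with each library left out in turn (adjusted p between 0.0506 and 0.143), and it held in 5 of 15 alternatives. Of the endothelial markers, VWF and CDH5 rose, KDR (-0.74) was not called and PECAM1 had at most 6 counts in any library. The summed level of these 4 endothelial markers was 4.19 to 5.43 CPM without DOX and 7.17 to 8.69 CPM with DOX, and their part in the ACVRL1 result was not tested. Of 18 extracellular antagonists beyond the modulators above, 11 were tested and 0 were called by edgeR. At an unadjusted p under 0.05 there were 3, against the same 21.1% over all tested genes. DESeq2 called 1 (FSTL3), against 8.43% of all genes with an adjusted p, and limma-voom called 0, against 4.33% of all tested genes.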

How the data were processed

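RNA-seq of 6 libraries was analysed from the tables that the authors deposited, which hold raw counts per gene symbol (28008 symbols) and TPM, which relate counts to gene length and to the library's sum (25673 symbols). The submitters' processing notes name STAR, DESeq2 and GRCh38 (hg38). The aligner version, annotation and strand setting were not given in the sources used here, so antisense and overlapping genes may share reads. The labels name a stranded mRNA kit, yet RN7SK or SNORD3A held 25.7% to 34.5% of TPM and protein-coding genes 13.2% to 19.6%, so libraries were compared in CPM and TPM was used to rank genes.

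Groups came from the sample titles. Counts were filtered with filterByExpr, scaled with TMM and fitted with the edgeR 4.0.16 quasi-likelihood test (R 4.3.3, robust, two-sided, no covariate). Genes with a Benjamini-Hochberg adjusted p under 0.05, over all tested genes, were called. The biological coefficient of variation was 9.58%. Floors of 3 counts cover counting error only. The code was tested on simulated counts.

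The pathway genes and lists were chosen with earlier results of these data known. Genes were named by rule: called pathway genes, in each role the 4 with the highest mean TPM and the 2 uncalled ones with the largest fold change, and up to 4 called genes per further list. Other genes are given as examples. Some genes are counted in the lists but not reported by name here. Alternatives were other scaling factors, count filters, DESeq2 1.42.0, limma-voom and limma-trend on log2 TPM (limma 3.58.1), a replicate block and leaving out each library. Loci and sequences came from RefSeq tables (GRCh38.p14).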

Additional observations from a re-analysis of the deposited data

How the results depend on the processing

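The directions of the 5 called pathway genes held in every alternative that gave them a value, while their calls did not. GDF10 was called in 16 of 16 such alternatives (log2 fold change -2.06 to -0.37, the latter on log2(TPM + 1), which shrinks scarce genes), BMP3 in 13 of 18, GREM1 in 13 of 16, BAMBI in 11 of 18 and SMAD7 in 5 of 18. Over 39 named genes, fits with 6 libraries kept 382 of their results, made 46 weaker and 9 stronger and reversed 8, and fits without 1 library kept 183, with 39 weaker, 3 stronger and 9 reversed.

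DESeq2 called 1355 genes in all and 9 pathway genes (5 higher and 4 lower), with 2 receptors, 2 SMADs and 1 ID gene. Without a count filter 5 pathway genes were called higher, with 1 receptor and 1 ID gene. SMADs called were 0 with RLE factors, with no scaling factors, with a minimum mean of 50 counts, with limma-voom and in each TPM fit. Limma-trend called 31 genes on log2(TPM + 1) and 35 on log2(TPM + 0.1) at a mean TPM of at least 1. Both then called 0 pathway genes, 0 ligands, 0 modulators and 1 of the other pathway genes, and GDF10 lies below that minimum. On log2(TPM + 1) without a filter 11 genes were called, with 1 pathway gene (GDF10, lower) and 0 higher, 0 modulators and 0 other pathway genes. On log2(TPM + 0.1) rescaled over protein-coding genes, an alternative chosen after seeing the data, 427 genes were called. The cause of these differences was not tested.

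With 1 library left out, the calls ranged from 58 to 1035 for all genes, 1 to 7 for pathway genes (0 to 4 higher, 1 to 3 lower), 1 to 2 for ligands, 0 to 1 for receptors, 0 to 1 for SMADs, 0 to 1 for ID genes, 0 to 2 for modulators and 3 to 16 for the other pathway genes. The lowest counts came without DOX-negative replicate 3 (58 genes) and replicate 2 (127 genes), each with GDF10 as the 1 pathway gene called. A group of 2 libraries also leaves fewer degrees of freedom.

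Libraries 1, 2 and 3 of both groups deviated from their group means with correlations of -0.56, 0.022 and -0.077 over 14587 genes. These values gave no sign of pairing by replicate number. With 3 libraries per group such correlations constrain each other, so pairing was not settled. A replicate block gave 998 called genes, and 750 of them were among the 829. The 998 held 8 pathway genes (5 higher), with 2 receptors and 1 ID gene among the 8.

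The log2 fold changes that reversed were near 0. BMP8B was -0.0031 with RLE factors, -0.0088 with no factors, -0.0029 with a minimum mean of 50 counts, -0.0011 with DESeq2 and -0.0060 on rescaled TPM. SMAD4 was 0.014, 0.013 and 0.014 in the other TPM fits. With 1 library left out, BMP8B ranged from -0.060 to 0.061, SMAD5 from -0.045 to 0.085, SMAD4 from -0.040 to 0.026 and SKIL from -0.034 to 0.22.

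Depth limits the ligands and modulators with few reads, such as NODAL, BMP4 and NOG, and a level of INHBA or INHBB under 3 counts per library was not detectable.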

Other observations

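The nearest protein-coding genes with an entry in the counts were looked up in RefSeq around the called pathway genes, 5 on each side. Noncoding genes, such as GREM1-AS1, were left out. Around GDF10, 3 of the 10 were tested and PTPN20, which encodes a tyrosine phosphatase and lies 297 kb away, was called lower (log2 fold change -0.77, SE 0.17, edgeR adjusted p = 0.0271). GDF2, the ligand gene 8.88 kb from GDF10, had 0 counts in every library, and ZNF488 and GPRIN2 had log2 fold changes of -0.30 and -0.18 without being called. All 3 tested neighbours of GDF10 thus had negative values, as did 8498 of all 17026 tested genes, of which 4.87% were called. ZNF488 and GPRIN2 lie 51.9 and 743 kb from GDF10. A regional change was not tested.

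Around GREM1, 6 of the 10 were tested and 1 was called, against 4.87% of all tested genes. SCG5, a secretory granule chaperone gene that lies 20.9 kb from GREM1, was called higher, with means of 1.79 CPM without and 2.93 CPM with DOX (log2 fold change 0.71, SE 0.18, edgeR adjusted p = 0.0474). FMN1, on the other side at 20.4 kb, had a log2 fold change of 0.31 (adjusted p = 0.112). Around BMP3, BAMBI and SMAD7, 8, 8 and 9 neighbours were tested, and they were not called, with log2 fold changes of -0.13 to 0.53, -0.33 to 0.44 and -0.44 to 0.31.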
